A study of Mus musculus with 2 samples.

Results

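The red cell keeps its shape through a net of spectrin filaments on the inner face of its membrane, joined at short actin filaments. The net is held to the lipid bilayer at an ankyrin site, where ankyrin ties spectrin to the anion exchanger band 3 and to the Rh complex, and at a junctional site built of actin, protein 4.1, adducin and dematin. Erythroid precursors lay down these proteins as they mature, and inherited loss of several of them causes spherocytic or elliptocytic anaemia in mice and humans. Levels of 8 genes of this structure are described here in mouse leukemia stem cells: Sptb (erythroid beta spectrin), Ank1 (ankyrin), Slc4a1 (band 3), Rhag (the Rh-associated glycoprotein), Epb42 (protein 4.2), Epb41 (protein 4.1), Add2 (beta adducin) and Dmtn (dematin). They were found by name among 43346 genes with an Ensembl identifier. The rule used no measured value, but earlier results of these data were known when the genes were chosen.

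The cells were taken from adult mice of 10 to 12 weeks, males and females pooled, infected with Friend virus, a mouse retrovirus that gives rise to erythroleukemia. Their strain had to carry the sensitive Fv2 allele (Fv2s), and the cells were described as CD34+, CD133+, Kit+ and Sca1+; the health state is given as unknown. Polyadenylated RNA was sequenced with paired ends in 1 group of 2 libraries, biological replicates 1 and 2, which have separate biosample records and 1 donor record. No uninfected or unsorted cells were analysed here, so each value is a level, and the only comparison is between the libraries, whose spread may be partly technical. The tables summed to 23575315 expected counts, which are estimated fragments, in replicate 1 and 22541765 in replicate 2.

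The markers in the description of the cells were scarce as RNA. Kit had 1.81 TPM in replicate 1 and 1.06 TPM in replicate 2, Ly6a (Sca1) had 1.45 and 2.15 TPM in the same order, Cd34 had 1.80 and 0.27 TPM, and Prom1 (CD133) had 3 counts in replicate 1 and 0 in replicate 2. TPM is the deposited length-corrected level of a gene, scaled to the same total in each library. Erythroid markers were plentiful, with 8 of 8 at 1 TPM or more in both libraries. Markers of macrophages (6 of 8), B lineage cells (5 of 6) and megakaryocytes (4 of 6, without Pf4 and Ppbp) also reached that level. None of the neuron (4), skeletal muscle (5) or kidney (5) markers did, and Umod, Slc12a1 and Atp6v1b1 had 0 counts in both. Over all protein-coding genes, 41.6% reached that level. Kidney also uses Slc4a1, and nerve or muscle also use Add2, Ank1, Epb41 and Sptb. In such bulk RNA, fewer cells of a type and less RNA per cell cannot be told apart.

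Transcripts of the membrane skeleton were present in both libraries, and most of them were abundant. Each of the 8 genes had at least 1 TPM in both libraries, against 41.6% of 21474 protein-coding genes. A mean of 100 TPM or more was reached by 6 of the 8, against 5.62% of protein-coding genes. The median of the 8 means was 181 TPM, beside 15.4 TPM for the median protein-coding gene that was detected in both libraries. Together they made up 0.274% of the TPM of replicate 1, against 0.142% of that of replicate 2.

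**Figure D1:**
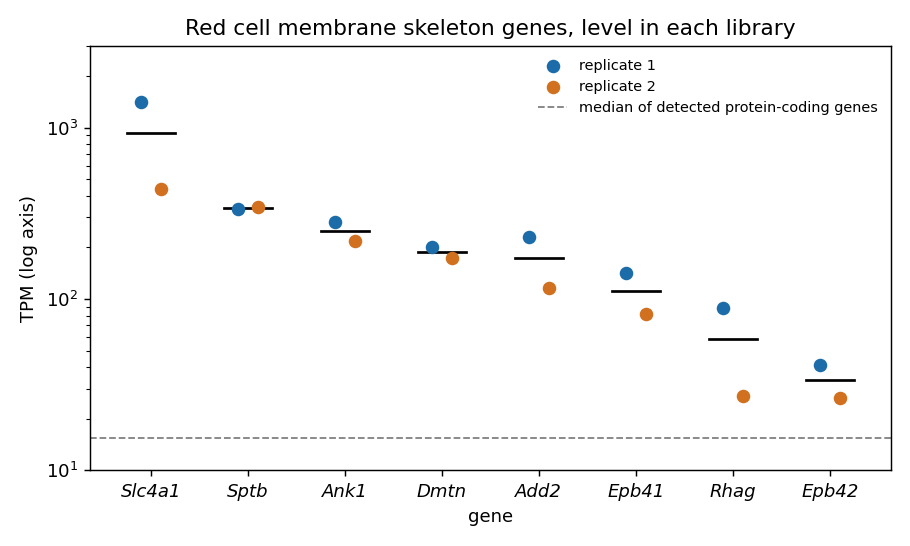
Level of each membrane skeleton gene in replicates 1 and 2, in TPM on a log axis, ordered by the mean, with a short black line at the mean of both libraries. Every point lies above the dashed line at 15.4 TPM, the median of detected protein-coding genes, and the libraries lie far apart for Slc4a1 and Rhag and close together for Sptb.

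Beta spectrin, a chain of the spectrin dimer, had the closest TPM values of the 8. Sptb (ENSMUSG00000021061.11, chromosome 12, 76580488 to 76710547, minus strand, mm10) had 336 TPM in replicate 1 and 344 TPM in replicate 2, from 53063 and 54415 counts. Its mean of 340 ± 5.58 TPM (SD, n = 2) placed it 339th of the protein-coding genes. In TPM the libraries gave Sptb nearly the same level, and the SD was the smallest of the 8. In the scaled counts described further below, Sptb was lower in replicate 1, with a log2 ratio of -0.53.

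Ankyrin, the adaptor between spectrin and band 3, followed. Ank1 (ENSMUSG00000031543.14, chromosome 8, 22974844 to 23150497, plus strand) had 280 TPM in replicate 1 and 218 TPM in replicate 2, a mean of 249 ± 43.9 TPM, and the libraries did not overlap those of Sptb. Sptb exceeded Ank1 1.20-fold in replicate 1 and 1.58-fold in replicate 2. In counts the order of the libraries was the other way, with 30355 in replicate 1 and 33622 in replicate 2. The authors' effective length of the gene, the length over which the counts are spread, was 5492 bases in replicate 1 and 7780 bases in replicate 2, so the sign of the Ank1 difference depends on the transcripts credited to it.

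Band 3, the chloride-bicarbonate exchanger that anchors ankyrin, had the highest level. Slc4a1 (ENSMUSG00000006574.11, chromosome 11, 102348824 to 102366203, minus strand) had 1418.5 TPM in replicate 1 and 436.5 TPM in replicate 2, from 123535 and 38101 counts. The mean was 928 ± 694 TPM, 115th of the protein-coding genes. Even the lower library stood above both values of Sptb. Slc4a1 alone made up 51.8% of the TPM of the 8 genes in replicate 1 and 30.7% in replicate 2.

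Rhag, which carries the Rh polypeptides to the membrane and conducts ammonia or carbon dioxide, was scarcer. Rhag (ENSMUSG00000023926.7, chromosome 17, 40811126 to 40840754, plus strand) had 89.0 TPM in replicate 1 and 27.1 TPM in replicate 2, a mean of 58.1 ± 43.7 TPM. Band 3 exceeded Rhag 15.9-fold in replicate 1 and 16.1-fold in replicate 2. Of the 28 pairs among the 8 genes, this pair kept its TPM ratio most closely, with a difference of 0.01 on the log2 scale between the libraries, against a median of 0.72 and a maximum of 1.75 for Sptb and Rhag. Since 2 libraries give each gene 1 ratio, and the pair was picked as the closest of the 28, this is a description only.

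Protein 4.2, a relative of transglutaminases without enzyme activity that binds band 3 and ankyrin, had the lowest mean. Epb42 (ENSMUSG00000023216.9, chromosome 2, 121017891 to 121037072, minus strand) had 41.1 TPM in replicate 1 and 26.3 TPM in replicate 2, a mean of 33.7 ± 10.5 TPM, from 956 and 406 counts. The range of Epb42 overlapped that of Rhag, and most of its TPM came from a transcript that encodes no protein, described with the transcripts.

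The genes of the junctional site lay in the middle of the order. Dmtn (ENSMUSG00000022099.12, chromosome 14, 70601263 to 70636048, minus strand), whose product bundles actin and binds spectrin, had 202 TPM in replicate 1 and 174 TPM in replicate 2, a mean of 188 ± 19.5 TPM. Add2 (ENSMUSG00000030000.8, chromosome 6, 86028681 to 86124409, plus strand), a cap of the actin filament that also binds spectrin, had 231 TPM in replicate 1 and 117 TPM in replicate 2, a mean of 174 ± 81.2 TPM. Epb41 (ENSMUSG00000028906.11, chromosome 4, 131923413 to 132075321, minus strand), which tightens the spectrin-actin bond and reaches glycophorin C, had 142 TPM in replicate 1 and 81.2 TPM in replicate 2, a mean of 111 ± 42.8 TPM. The effective length of Epb41 was 4110 bases in replicate 1 and 4927 bases in replicate 2, so its TPM difference also depends on the transcripts credited to it. Dmtn and Add2 overlapped, and so did Add2 and Epb41, Epb41 and Rhag, and Rhag and Epb42, so the means order these neighbours no further than their spread allows. Slc4a1, Sptb, Ank1 and Dmtn followed each other without overlap. Within each library the 8 genes had the same order by TPM except that Add2 ranked 4th and Dmtn 5th in replicate 1, and the reverse in replicate 2.

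The libraries differed by gene and not by 1 common factor. Expected counts were scaled by TMM, which takes most genes as equal, and each ratio has an exact binomial 95% interval that covers counting error only. A gene was called apart where the whole interval lay beyond 2-fold. On the log2 scale, replicate 1 over replicate 2, Rhag stood at 1.22 (1.13 to 1.32) and Slc4a1 at 1.21 (1.19 to 1.22), and both were apart. They were 2 of 8 genes, against 14.9% of 12547 tested genes that were apart and higher in replicate 1. None of the 8 was apart and higher in replicate 2, against 9.17% of tested genes, and 24% of tested genes were apart in either direction. A count of 2 of 8 does not set these genes off from this background.

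The other 6 genes stayed within 2-fold. Epb42 had a log2 ratio of 0.74 (0.58 to 0.92) and Add2 one of 0.50 (0.45 to 0.54), both higher in replicate 1. The Epb42 ratio is that of the whole gene and mixes unlike transcripts. Its non-coding Epb42-205 had 284 counts in replicate 1 and 223 in replicate 2. The coding Epb42-201 had 235 and 69.5 counts in the same order, and the coding Epb42-202 had 257 and 72.7. Whether the coding transcripts alone stayed within 2-fold was not tested. Epb41 had 0.04 (0.00 to 0.09), next to the median of 0.04 over tested genes. Dmtn had -0.28 (-0.32 to -0.25), Sptb -0.53 (-0.54 to -0.51) and Ank1 -0.64 (-0.66 to -0.62), and these 3 were lower in replicate 1 under TMM, but Dmtn stood at 0.14 under total-count scaling and at 0.21 in the ratio of deposited TPM, and Ank1 at 0.36 in that ratio of TPM. Under TMM, band 3, Rhag, protein 4.2 and beta adducin thus lay on the higher side and spectrin, ankyrin and dematin on the lower side. The median of the 8 was 0.27, and 5 of 8 were above 0, as were 51.4% of tested genes.

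These signs depend on the scaling. Of the genes that were apart, 61.8% were higher in replicate 1 under TMM, 86.8% under total-count scaling and 85.0% in the ratio of deposited TPM, which put the median tested gene at 0.47 and 0.44. In TPM, 7 of the 8 genes were higher in replicate 1, as were 65.4% of tested genes, and Sptb was the exception. The distance between Rhag or Slc4a1 and Sptb is a ratio within each library and does not change with the scaling. Slc4a1 exceeded Sptb 4.22-fold in replicate 1 and 1.27-fold in replicate 2.

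**Figure D2:**
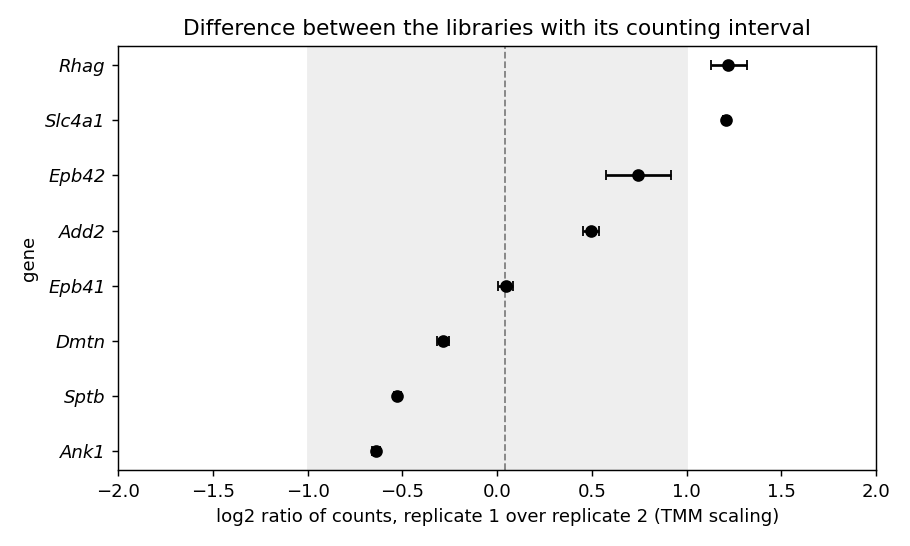
Log2 ratio of TMM-scaled counts, replicate 1 over replicate 2, for each membrane skeleton gene, with exact 95% counting intervals. The grey band spans 2-fold in each direction and the dashed line is the median of all tested genes; Rhag (1.22) and Slc4a1 (1.21) lie wholly to the right of the band, and Dmtn, Sptb and Ank1 lie below 0.

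Other features of the libraries differed as well, in mixed directions. Gata1, the erythroid transcription factor, had 308 TPM in replicate 1 and 75.0 TPM in replicate 2, and its log2 ratio of 1.56 (1.49 to 1.62) was apart. The other 4 listed erythroid regulators were not apart, with log2 ratios of 0.12 for Klf1, -0.27 for Tal1, -0.59 for Zfpm1 and -0.91 for Ldb1. The summed globin genes made up 10.99% of the TPM of replicate 1, against 22.2% of that of replicate 2. The listed globin genes did not run 1 way: the alpha globin Hba-a1 had a log2 ratio of -1.85 and the beta globin Hbb-bs one of 0.41. Other globin genes entered the sum, and reads shared among globin genes were not examined. The 6 B lineage markers summed to 695 TPM in replicate 1 and 292 TPM in replicate 2 (Vpreb1 had 0 counts and 1 count). Most of that difference came from Cd79a, at 436 TPM in replicate 1 and 99.4 TPM in replicate 2, which was the 1 apart of 5 tested, while Pax5 had a log2 ratio of -0.14 and Ebf1 one of -0.47. The 8 macrophage markers summed to 1023 TPM in replicate 1 and 1375 TPM in replicate 2, led by the complement genes. Of these 8, however, 3 (Cd68, Mertk and Adgre1) were apart and higher in replicate 1 and 1 (C1qc) was apart and higher in replicate 2. The 6 megakaryocyte markers summed to 373 TPM in replicate 1 and 366 TPM in replicate 2, with none of 4 tested apart. The part of these features in the differences of Slc4a1 and Rhag was not tested.

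Each member was set beside its relatives, since the family often holds the form used by other tissues. In 5 of the 8 families the red cell gene took most of the family's TPM. Sptb made up 98.9% of beta spectrin TPM in replicate 1 and 99.5% in replicate 2, with Sptbn1 next at 2.25 ± 1.31 TPM. Ank1 made up 98.95% and 98.54% of ankyrin TPM in the same order, with Ank2 next at 2.77 ± 0.445 TPM. Slc4a1 made up 97.3% of the SLC4 transporters in replicate 1 and 91.6% in replicate 2, where the housekeeping exchanger Slc4a2 held 32.1 ± 0.467 TPM. Dmtn made up 95.4% and 96.5% beside the Ablim genes, and Epb41 93.2% and 84.0% of the 4.1 genes. Of 39 relatives on these lists, 16 reached 1 TPM in both libraries, near the 41.6% of all protein-coding genes that did. This count does not set the relatives off from that background.

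The other 3 families were led by a different gene. Alpha adducin, Add1, which pairs with beta adducin in the red cell, had 402 ± 40.6 TPM, above Add2 in both libraries, and Add2 had 0.537 of its level in replicate 1 and 0.312 in replicate 2. The Rh polypeptide gene Rhd, the partner of Rhag in the Rh complex, had 118 TPM in replicate 1 and 68.8 TPM in replicate 2, and also exceeded Rhag in each. The kidney-type relatives Rhbg and Rhcg had 0 counts in replicate 1 and 3 and 4 counts in replicate 2. The tissue transglutaminase Tgm2 had 80.5 TPM in replicate 1 and 27.97 TPM in replicate 2, above Epb42 in both, while Tgm3, Tgm4, Tgm5, Tgm6 and Tgm7 had 0 counts in both.

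**Figure D3:**
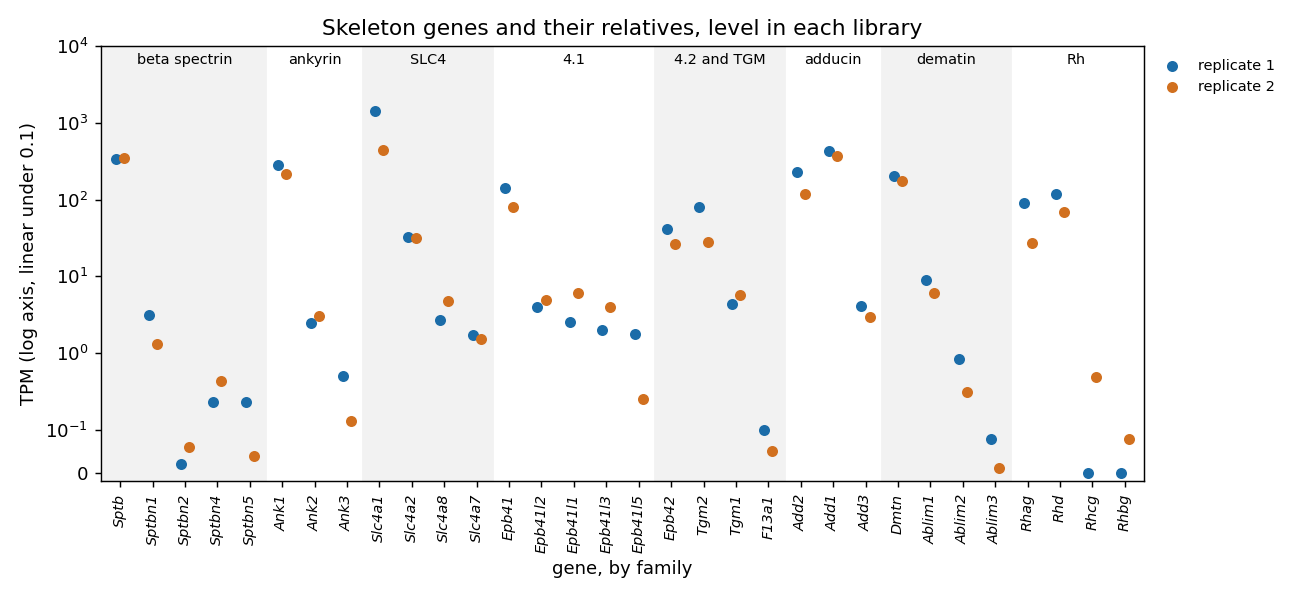
Level of each membrane skeleton gene and of its most abundant relatives in replicates 1 and 2, in TPM on a log axis that is linear below 0.1, in blocks by family. Sptb, Ank1, Slc4a1, Epb41 and Dmtn stand far above their relatives and Add2, Rhag and Epb42 each lie below 1 relative.

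Base composition differed among the members and ran with level over the whole table. Protein-coding genes were divided into 5 equal groups by the GC content of their longest transcript, and the group with the lowest GC content had a median of 0 TPM while the group with the highest had 4.94 TPM. Epb41 (42.3%) and Rhag (42.2%) lay in the lowest group and Epb42 (47.1%) in the middle one, and Ank1 (57.2%) and Sptb (57.0%) lay in the highest. Slc4a1 (55.1%), which had the highest level, lay in the group below the highest, with Dmtn (53.7%) and Add2 (52.0%). The part of base composition in the order of the levels was not tested.

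The wider lists give the setting of these genes. All 18 of the listed skeleton and bridging genes reached 1 TPM in both libraries, among them the actin gene Actb (2585 ± 2990 TPM), the non-muscle myosin Myh9 (170 ± 11.03 TPM), stomatin (Stom, 107 ± 113 TPM), the capping protein Capzb (50.8 ± 1.22 TPM), the membrane adaptor Mpp1 (23.1 ± 17.8 TPM) and tropomodulin Tmod1 (16.1 ± 4.94 TPM). Of these 18 genes, 6 were apart and higher in replicate 1 (Actb, Stom, Capza2, Mpp1, Myl12a and Tmod3), and none was apart and higher in replicate 2; the background of 14.9% and 9.17% applies here too, and the median log2 ratio of the list was 0.05, beside 0.04 over tested genes. All 18 membrane partners reached 1 TPM as well, and 4 were apart and higher in replicate 1 (among them Icam4, Gapdh and Ermap), while the potassium channel Kcnn4 was apart and higher in replicate 2, and the list median was 0.40. Actb and Gapdh have near-identical pseudogenes, so their counts are uncertain. Gypc, the glycophorin that protein 4.1 holds, had 100.1 TPM in replicate 1 and 99.6 TPM in replicate 2.

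Transcription factors and cofactors that drive erythroid genes were abundant. Zfpm1 had 1854 ± 246 TPM, Klf1 1329 ± 390 TPM, Ldb1 1012 ± 214 TPM and Tal1 470.0 ± 25.4 TPM. The means of all 4 exceeded that of Sptb, and those of Zfpm1, Klf1 and Ldb1 also exceeded that of Slc4a1. Gata1, at 192 ± 165 TPM, lay with Dmtn and Add2.

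Promoter sequence was supplied by RefSeq (GRCm38.p6, the assembly of mm10) for 5 of the 8 genes, as 250 bases before the start and 50 bases after it. In each of the 3 shown, a measured transcript begins near that start, which also holds for the Sptb window, not printed. Capitals mark the letters GATA on either strand and, in Epb41, the pattern CCNCNCCC on either strand. Epb42 is at chr2:121036828-121037127 on the minus strand, Epb41 at chr4:132075264-132075563 on the minus strand and Rhag at chr17:40810899-40811198 on the plus strand.
Epb42 promoter: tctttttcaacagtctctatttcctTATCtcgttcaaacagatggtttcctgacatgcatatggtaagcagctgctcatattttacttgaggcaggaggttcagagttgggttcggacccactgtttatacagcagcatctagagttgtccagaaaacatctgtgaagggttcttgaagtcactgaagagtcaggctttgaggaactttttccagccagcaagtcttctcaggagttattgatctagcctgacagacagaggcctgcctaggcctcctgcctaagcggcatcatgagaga
Epb41 promoter: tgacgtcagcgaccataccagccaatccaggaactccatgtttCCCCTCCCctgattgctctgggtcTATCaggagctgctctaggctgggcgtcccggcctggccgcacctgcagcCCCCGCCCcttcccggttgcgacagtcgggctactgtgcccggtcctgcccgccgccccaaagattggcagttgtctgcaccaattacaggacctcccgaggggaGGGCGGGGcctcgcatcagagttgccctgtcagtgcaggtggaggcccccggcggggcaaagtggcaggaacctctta
Rhag promoter: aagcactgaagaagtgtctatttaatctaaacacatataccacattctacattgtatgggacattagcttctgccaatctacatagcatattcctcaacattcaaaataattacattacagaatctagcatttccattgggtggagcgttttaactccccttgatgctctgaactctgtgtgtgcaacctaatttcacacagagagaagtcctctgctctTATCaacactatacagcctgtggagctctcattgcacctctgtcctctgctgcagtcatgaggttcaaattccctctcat
The start of Rhag lay 23 bases from that of Rhag-201, its measured transcript, the start of Epb41 lay 8 bases from that of Epb41-215, and the start of Epb42 lay 42 bases from that of the coding transcript Epb42-201. The leading Epb42 transcript, Epb42-205, begins 14861 bases from the printed window's start site. The Sptb window begins at Sptb-201, a minor form, 524 bases from the leading Sptb-202, and the Add2 window lay 49403 bases from Add2-201; neither is printed. Ank1, Dmtn and Slc4a1 had no entry.

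Motifs were counted on both strands over 1 window for each of 27025 symbols. The GATA factor motif AGATAA was found in 1 of the 5 windows, that of Epb42, and in 11.4% of all windows. The shorter GATA was found in 5 of 5, and in 58.3% of all windows. The Krüppel-like factor pattern CCNCNCCC was found in 3 of 5 (Epb41, Add2 and Sptb) and in 49.1% of all windows, and the E box CANNTG in 4 of 5 and in 72.1%. AGATAA holds GATA within it, so these counts overlap, and with 5 windows none of the counts sets the genes off from all windows.

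Transcript forms are the authors' estimates, since the forms of a gene share most of their reads. Add2 and Rhag had 1 transcript each in the tables. Add2-201 has 3119 bases, while the longest Add2 transcript in the later release GENCODE M21 has 8182. The Add2 level and its ratio to Add1 thus rest on 1 shorter model. Slc4a1-201, the full band 3 of 929 residues, made up 99.9% of Slc4a1 in replicate 1 and 99.8% in replicate 2. Of the 6 genes with several transcripts, 5 were led by 1 form in both replicates, and Epb41 was not.

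Sptb was nearly pure in the red cell form. Sptb-202, of 2137 residues, made up 97.97% of Sptb TPM in replicate 1 and 98.69% in replicate 2. Sptb-201, of 2329 residues, held 2.03% and 1.31% in the same order. The longer product corresponds in length to the form of brain and muscle, which has a different end.

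Dmtn divided between forms in a way that differed between the libraries. Dmtn-203, of 383 residues, held 51.0% in replicate 1 and 63.7% in replicate 2, and Dmtn-201, of 405 residues, held 40.5% and 21.5% in the same order. Dmtn-202, of 380 residues, held the remaining 8.53% and 14.8%. The first pair correspond to the small and large dematin subunits. Dmtn-201 and Dmtn-203 are listed with 4129 and 4187 bases in the deposited tables and with 5418 and 4176 in M21, so their exon models differ between the releases and the shares are tied to the older one.

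Ank1 had many more forms. Ank1-207, of 1878 residues, led with 39.4% of Ank1 TPM in replicate 1 and 89.3% in replicate 2. In replicate 1, Ank1-214, a transcript of 26 exons whose 5′ end is not annotated, held 29.4% and Ank1-206, of 1862 residues, held 12.1%, and in replicate 2 they held 0% and 0.13%. The start used by Ank1-207 and its 4 neighbours (23058259 to 23058525) accounted for 41.8% of Ank1 in replicate 1 and 93.0% in replicate 2, and the start 60255 bases after the first one (23035099 to 23035231) for 16.4% and 3.73% in the same order.

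A short ankyrin with an internal start was also credited with reads. Ank1-201, of 156 residues and 4 exons, corresponds to small ankyrin, known from the sarcoplasmic reticulum of muscle. Its share of TPM was 11.8% in replicate 1 and 3.04% in replicate 2, from 585 and 117 counts, which were 1.93% and 0.348% of the gene's counts. Of the 5 skeletal muscle markers, Acta1 and Myh4 had 0 counts in both libraries, which allows up to 3 counts in each, Ckm had 7 counts in replicate 1 and 15 in replicate 2, Tnnt3 had 6 and 0 in the same order, and Ryr1 had 15 and 41.

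**Figure D4:**
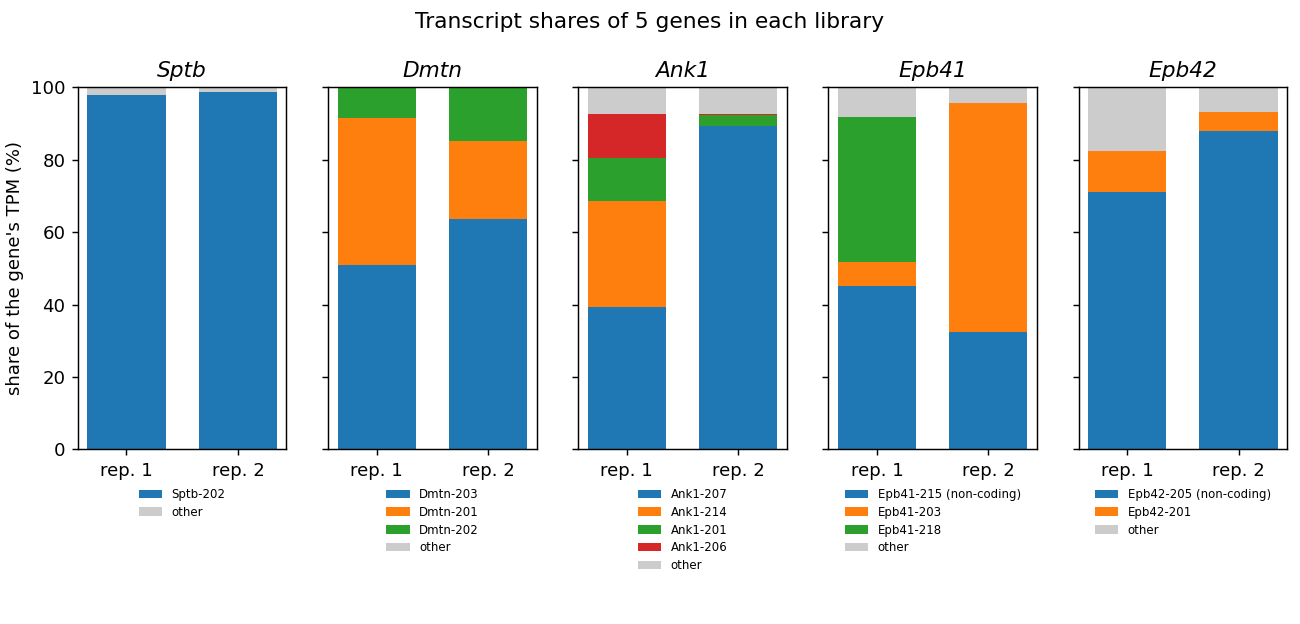
Share of each gene's TPM given to its transcripts in replicates 1 and 2, in percent, for 5 genes; grey is the sum of other transcripts. Sptb is nearly a single form in both libraries, Ank1-207 takes 39.4% in replicate 1 and 89.3% in replicate 2, and the leading Epb41 transcript differs between the libraries.

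Epb41 was divided among several transcripts, and its lead differed between the libraries. Of 18 transcripts, Epb41-215, annotated as non-coding, led in replicate 1 with 45.2% and held 32.3% in replicate 2. Epb41-203, of 804 residues, held 6.37% in replicate 1 and led in replicate 2 with 63.5%. Epb41-218, a fragment of 6 exons at the 3′ side whose 5′ end is not annotated, held 40.3% in replicate 1 and 0% in replicate 2. Epb41-215 begins at the promoter printed above, and Epb41-203 begins 26230 bases after the first start of the gene. Starts at the first site accounted for 50.6% of Epb41 in replicate 1 and 34.1% in replicate 2, and starts at the Epb41-203 site for 7.81% and 65.2% in the same order.

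The form of protein 4.1 that binds spectrin and actin well needs an exon that erythroid precursors include late in maturation. It is the exon of 63 bases at chr4:131962924-131962986 (minus strand), which encodes 21 residues. It is shown in capitals between 20 bases of its neighbours in Epb41-204, followed by the junction without it in Epb41-203.
Epb41-204, exon present: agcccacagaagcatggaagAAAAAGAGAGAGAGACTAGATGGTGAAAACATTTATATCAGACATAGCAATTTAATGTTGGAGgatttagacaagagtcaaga
Epb41-203, exon absent: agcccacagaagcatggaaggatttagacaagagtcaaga
Transcripts with the exon had 9.91 TPM in replicate 1 and 2.95 TPM in replicate 2, and transcripts that skip it 73.9 TPM in replicate 1 and 78.0 TPM in replicate 2. The exon was thus held in 11.8% of the transcripts that span it in replicate 1 and in 3.64% in replicate 2. The skipping side was led by Epb41-215 in replicate 1 and by Epb41-203 in replicate 2, while Epb41-218 does not reach the exon. Epb41-215, annotated as non-coding, had 64.1 TPM in replicate 1 and 26.2 TPM in replicate 2. The coding Epb41-203 had 9.02 TPM in replicate 1 and 51.5 TPM in replicate 2. The percentage in replicate 1 thus rests largely on a transcript annotated as non-coding, and is not a share of protein forms.

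Most of the Epb42 TPM lay outside its coding transcripts. Epb42-205, a retained-intron transcript of 625 bases and 3 exons near the 3′ side of the gene, made up 71.0% of Epb42 TPM in replicate 1 and 88.0% in replicate 2. In counts it held less, 284 of 956 in replicate 1 (29.7%) and 223 of 406 in replicate 2 (54.8%), since TPM divides by length. Of its 625 bases, 124 lie outside the exons of the coding transcripts. The coding transcripts Epb42-201 and Epb42-202 together had 7.90 TPM in replicate 1 and 2.29 TPM in replicate 2, a mean of 5.09 ± 3.97 TPM.

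**Figure D5:**
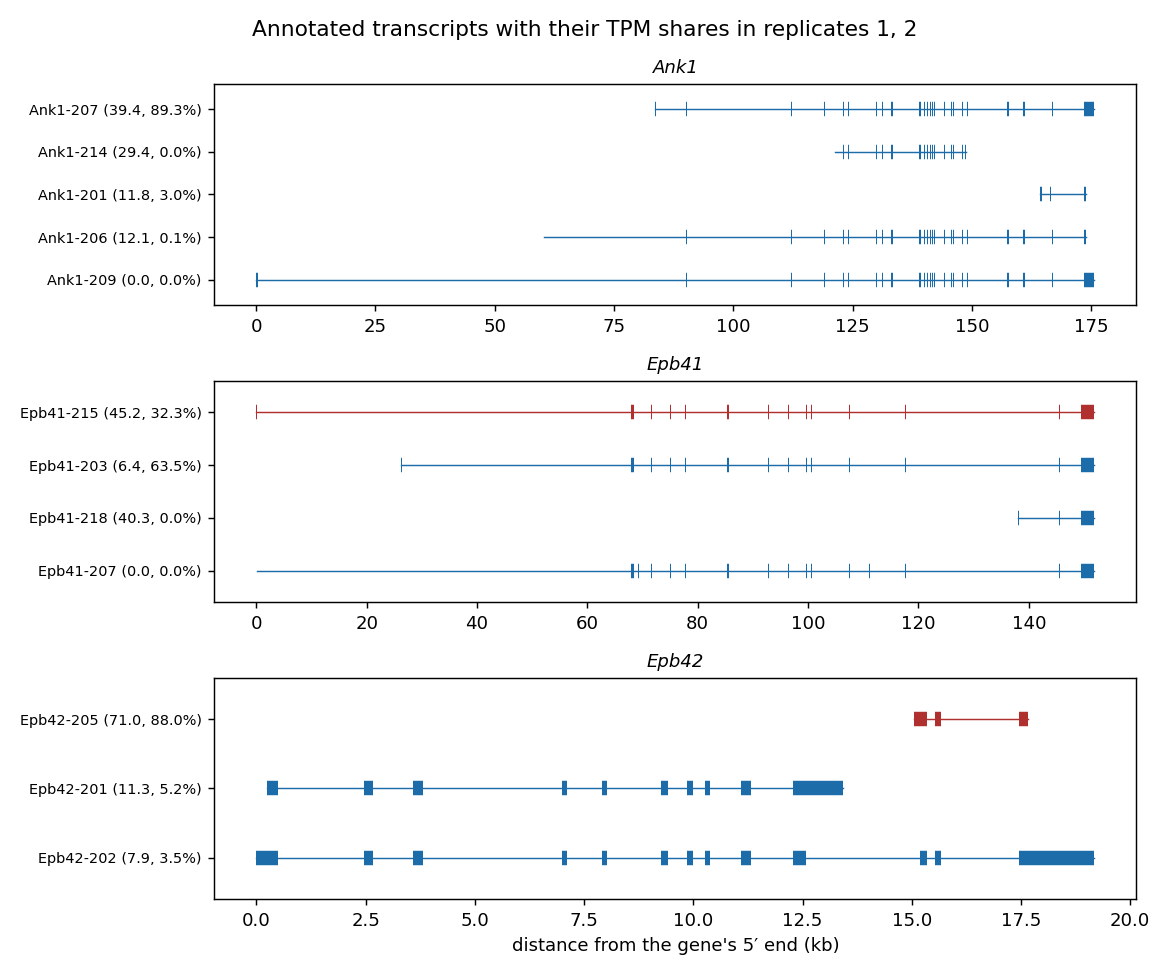
Exons (boxes) of the transcripts of Ank1, Epb41 and Epb42 that held 10% or more of their gene in either library, and of the longest coding product, by distance from the gene's 5′ end in kb, with their shares of TPM in replicates 1 and 2 beside the names. Blue is coding and red is non-coding; Epb41-218 and Epb42-205 cover a short stretch on the 3′ side of their genes.

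Counting the coding transcripts alone lowered 2 of the levels and left the order of the means as it was. Epb41 then had 76.9 TPM in replicate 1 and 54.6 TPM in replicate 2, a mean of 65.7 ± 15.7 TPM, while Epb42 had the mean given above. The means of the other 6 genes moved by less than their spread between the libraries. With this counting, chosen after the values had been seen, 5 of the 8 genes had a mean of 100 TPM or more. The coding level of Epb41 in replicate 1 included 57.1 TPM of the fragment Epb41-218. Coding transcripts of Epb41 with a product length had 16.9 TPM in replicate 1 and 53.0 TPM in replicate 2. Both values lie below the Rhag mean of 58.1 TPM, so the order of the means holds only with the fragments counted.

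The members share little sequence with other genes. Between 0.0197% and 3.74% of the 25-base words of each gene's transcripts were shared with transcripts of other genes, the most in Rhag and Dmtn. Genes that overlap the members held at most 186 counts in a library, in Sptb, beside its 54415.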

How the data were processed

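Polyadenylated RNA was sequenced in 2 libraries of 1 group. The authors deposited gene and transcript tables made on mm10 with GENCODE M4, per the readme; neither aligner nor quantifier is named (not given in the sources used here). Per the file headers, they hold expected counts, which are estimated fragments, and the deposited TPM, FPKM and posterior mean TPM, and each transcript's percent of its gene as the authors gave it. The authors' interval bounds, a signal on the TPM scale, were not used. A table had 69691 rows, of which 43346 had an Ensembl identifier and 42462 of these matched GENCODE M21, which gave symbols, types, positions and exons.

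Levels are the mean of the deposited TPM over the 2 libraries, with the SD. Detection meant 1 TPM in both libraries. For ratios, the authors' expected counts were rounded, filtered at 20 counts over both libraries and scaled by TMM in edgeR 4.0.16, with DESeq2 1.42.0 size factors as an alternative; each ratio had a prior count of 0.5 added, with an exact Clopper-Pearson 95% interval. No p-value was computed, because there was 1 group. The ratio step was tested on simulated counts. The pass criteria applied only to counts with counting error alone, so the test does not cover variation between replicates. Beside the 8 members, named genes were the 2 most abundant of each list and those with a mean of 10 TPM or more; others named in the text were chosen after their values were seen. Named transcripts held 10% or more of their gene in a library or had the longest product, except Epb41-204, named to show an exon. The members and lists were chosen with earlier results of these data known. Protein sequences were not analysed here, and some list genes and sequences are not reported here. R 4.3.3, Python 3.11.15, numpy 2.4.6, pandas 2.3.3, scipy 1.17.1 and matplotlib 3.10.9 were used.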

Additional observations from a re-analysis of the deposited data

How the results depend on the processing

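The count of detected members (8) was the same at minimums of 0.1 and 10 TPM, in FPKM and in each library alone, and the count with a mean of 100 TPM or more ranged from 5 to 6. The 2 members apart in replicate 1 were 3 under total-count scaling, where Epb42 joined them at a log2 ratio of 1.17, and 2 under the other settings run. Ank1 changed sign in the ratio of deposited TPM (0.36), and Dmtn changed sign there (0.21) and under total-count scaling (0.14); by construction Dmtn follows the shift of the median gene, and Ank1 the effective length as well. Relatives with at least 10 TPM in both libraries numbered 4, against 16 at 1 TPM. Promoters with a GATA motif numbered 5 for GATA and 3 for AGATAN, against 1 for AGATAA. By counts in place of TPM, Epb42-205 held a mean of 42.3% of its gene and Ank1-201 1.14%. Counting coding transcripts alone, an alternative added after seeing the data, moved the mean of Epb42 to 5.09 TPM and that of Epb41 to 65.7 TPM. Leaving out 1 of 2 libraries says nothing about stability: Ank1-207 then held 39.4% or 89.3% and Epb41-203 6.37% or 63.5% of its gene. A ratio cannot be formed with 1 library left out. The protein comparison was not run. With 406 to 123535 counts per member and library, counting error was not weighed against the choice of transcripts or the number of libraries.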
